A study of Mus musculus with 9 samples.

Results

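AM80, a compound tested in cultured brown fat cells as a candidate activator of Ppargc1a, was compared with its solvent DMSO. The comparison takes in 3 AM80 arrays and 3 DMSO arrays, 6 of the 9 arrays of the series, and 30860 genes, each represented by the transcript cluster with the highest mean over the 9 arrays. The cells were fully differentiated brown fat cells of C57BL/6 mice, given 10 µM AM80 or DMSO for 8 h, and total RNA (100 ng) was hybridised to Affymetrix whole-transcript arrays. The remaining 3 arrays hold cells given 10 µM of the compound AM73 for the same 8 h, and they are used here for the shared estimate of spread and for a direct difference between the compounds. The labels call the replicates technical and do not say that they came from separate cultures, so every p-value measures the spread between these arrays only, and 3 arrays a group limit the precision. Values are log2 array values after the authors' normalization, so each difference of 1 is a doubling of signal relative to the other genes of the same array.

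Brown fat cells burn fatty acids and glucose to make heat, through uncoupling protein 1 (Ucp1) in the inner mitochondrial membrane. PGC-1α, encoded by Ppargc1a, is a coactivator that works with nuclear receptors such as PPARγ and ERRα to raise mitochondrial and thermogenic genes. The hypoxia-inducible factors (HIF) form another programme that bears on the results: prolyl hydroxylases mark the HIF-α subunits for destruction by the VHL protein when oxygen is at hand, and stabilised HIF raises genes of glucose uptake, glycolysis, collagen modification and the hydroxylases themselves.

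Of 16 markers of brown adipocytes, 11 had a mean log2 value of at least 5 in the DMSO arrays, and Ucp1, Cidea, Prdm16, Dio2 and Cox8b lay below it. With AM80, 1 of the 16 rose (Ucp1) and 4 fell (Pparg, Cd36, Lpl and Ppargc1a). The summed signal of the 16 ran from 14.02 to 14.16 in the DMSO arrays and from 13.8 to 13.86 in the AM80 arrays (log2). None of 8 macrophage markers and none of 7 endothelial markers reached a mean of 5 in any group, and none was called (0 in each list). Of 12 markers of preadipocytes and fibroblasts, 2 were called, Vim (0.48 higher with AM80, adjusted p = 0.0252) and S100a4 (1.29 higher, adjusted p = 0.00358), and the list's summed signal ran from 10.88 to 11.11 with DMSO and from 11.16 to 11.48 with AM80. Of 8 skeletal muscle markers, Acta1 alone was called (0.90 higher, adjusted p = 0.00246), with a summed signal of 6.66 to 6.93 with DMSO and 7.06 to 7.54 with AM80. Since these are bulk cultures, fewer cells of a type and less RNA per cell cannot be told apart, and the part of these markers in the results was not tested.

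Several array-level values moved with AM80. The median of the poly-A control features, which report RNA spiked into the labelling reaction, was 4.51, 4.63 and 4.83 on the DMSO arrays and 5.85, 5.44 and 5.20 on the AM80 arrays. All 3 AM80 arrays end their column names in the number 5, while of the DMSO arrays only replicate 2 does and the others end in 7; no label explains this number. The third DMSO array lay nearest to the AM80 arrays: its score on principal component 1 (58.7% of variance) was 2.51 against −34.4 and −22.6 for the other DMSO arrays and 74.7, 53.7 and 31.2 for AM80. Among the 2846 genes lower with AM80 than with AM73, a contrast whose difference holds no DMSO array although the DMSO arrays enter its spread, DMSO replicate 3 was the lowest DMSO array in 2424 (85.2%), and among the 3061 higher genes it was the highest in 2070 (67.6%). Without DMSO replicate 3 the AM80 against DMSO calls numbered 4568, and 3857 of the original 4302 calls were made again. The part of these array-level values in the results was not tested.

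With AM80, genes of the HIF response and of glycolysis were higher, as were Ucp1 and the fatty acid receptor gene Ffar4. Ppargc1a itself was lower, as were genes for cohesin and condensin, large ubiquitin ligases, chromatin remodellers and AMP-activated kinase. In the limma fit over all genes, 4302 of 30860 genes differed from DMSO at an adjusted p under 0.05 (13.9% of genes), 2130 of them higher with AM80 (6.90%) and 2172 lower (7.04%). Calls were concentrated among brighter genes: of 7895 genes with a mean of at least 5, 1684 rose (21.3%) and 1725 fell (21.8%), while of 16876 genes with a mean under 3, 82 rose and 48 fell. The groups did not overlap for 25.5% of genes. The count rested on single arrays: it was 1740 without DMSO replicate 1, 2180 without DMSO replicate 2, 2492 without AM80 replicate 1 and 2482 without AM80 replicate 2. A core of 1620 calls, 493 higher and 1127 lower, was made in all 9 fits that each left out an array.

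Genes of the oxygen response were among the leading rises. The 250 bases before the start sites of 5 of them are shown because these promoters hold the core letters of the HIF response element, ACGTG, printed in capitals in either orientation (CACGT on the other strand). Sequences are from RefSeq (GRCm38.p6), 5′ to 3′ on the strand of the gene: Ankrd37 at chr8:45999851-46000100 (- strand), Egln3 at chr12:54203875-54204124 (- strand), Slc16a3 at chr11:120948817-120949066 (+ strand), P4ha1 at chr10:59323046-59323295 (+ strand) and Slc2a1 at chr4:119108495-119108744 (+ strand).
Ankrd37: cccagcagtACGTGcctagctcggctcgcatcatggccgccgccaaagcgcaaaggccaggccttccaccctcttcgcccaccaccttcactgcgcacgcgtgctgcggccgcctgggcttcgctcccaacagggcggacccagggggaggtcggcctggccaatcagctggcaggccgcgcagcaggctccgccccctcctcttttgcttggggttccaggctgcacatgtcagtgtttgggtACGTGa
Egln3: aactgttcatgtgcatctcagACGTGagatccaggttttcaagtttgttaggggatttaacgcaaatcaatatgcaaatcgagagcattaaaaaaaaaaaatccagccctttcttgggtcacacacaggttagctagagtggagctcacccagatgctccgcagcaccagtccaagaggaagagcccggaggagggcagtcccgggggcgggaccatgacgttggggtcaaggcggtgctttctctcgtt
Slc16a3: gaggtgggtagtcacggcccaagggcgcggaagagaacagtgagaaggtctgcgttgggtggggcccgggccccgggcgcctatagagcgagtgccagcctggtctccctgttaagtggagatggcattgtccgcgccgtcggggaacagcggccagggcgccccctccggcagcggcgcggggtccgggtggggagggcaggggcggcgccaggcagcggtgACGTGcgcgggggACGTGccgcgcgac
P4ha1: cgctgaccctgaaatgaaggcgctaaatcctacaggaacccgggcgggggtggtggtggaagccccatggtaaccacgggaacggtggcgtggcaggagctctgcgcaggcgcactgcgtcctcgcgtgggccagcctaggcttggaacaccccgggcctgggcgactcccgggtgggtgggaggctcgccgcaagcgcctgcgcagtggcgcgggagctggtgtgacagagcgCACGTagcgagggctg
Slc2a1: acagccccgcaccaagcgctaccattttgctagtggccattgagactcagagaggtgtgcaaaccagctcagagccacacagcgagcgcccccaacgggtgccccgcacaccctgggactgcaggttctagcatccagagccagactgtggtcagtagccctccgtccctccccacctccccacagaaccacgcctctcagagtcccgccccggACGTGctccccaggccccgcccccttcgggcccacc
Counted back from −1 at the last base before the start site, the first base of the motif lies at −241 and −6 in Ankrd37, −229 in Egln3, −27 and −14 in Slc16a3, −16 in P4ha1 and −36 in Slc2a1. Over windows of 300 bases (250 before to 50 after the start), 14 of the 22 HIF target genes with a RefSeq promoter hold ACGTG (63.6%), against 19.6% of all 27025 promoters. Of the HIF targets that rose, 8 of 13 hold it (61.5%), a share no higher than that of the whole list. The windows of Ucp1 and Ffar4, which also rose, do not hold it, and that of Rora, a HIF target that fell, does. Among brighter genes the motif was as common in promoters of genes that rose (28.8%) as of genes that fell (28.5%), and 28.3% of all brighter genes hold it. A match is a description of these letters, not a binding site.

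Ankrd37, a small ankyrin-repeat gene known as a HIF target, had values of 4.50, 4.86 and 5.73 on the DMSO arrays and 7.51, 7.23 and 7.21 on the AM80 arrays. Every AM80 array lay above every DMSO array, as the rule for picking the leading rises and falls required, and DMSO replicate 3 was the highest of the controls. It rose by 2.29 (SE 0.26, 95% interval 1.70 to 2.88, adjusted p = 0.00215). Egln3, the HIF prolyl hydroxylase PHD3, read 7.41, 7.54 and 8.34 with DMSO and 9.56, 9.72 and 9.60 with AM80. The groups were again apart, and the rise was 1.86 (SE 0.21, adjusted p = 0.00201). Slc16a3, the lactate exporter MCT4, read 4.25, 4.82 and 5.31 with DMSO and 6.83, 6.48 and 6.50 with AM80. Its rise was 1.81 (SE 0.23, adjusted p = 0.00246), with no overlap. Slc2a1, the glucose transporter GLUT1, read 7.86, 8.06 and 8.73 with DMSO and 9.78, 9.59 and 9.57 with AM80. The control with the highest value was replicate 3, still below each AM80 array, and the rise was 1.43 (SE 0.20, adjusted p = 0.00287).

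The collagen prolyl 4-hydroxylase genes rose with them. P4ha1 read 7.92, 7.95 and 8.21 with DMSO and 9.13, 9.25 and 9.09 with AM80, a rise of 1.13 (SE 0.11, adjusted p = 0.00191). P4ha2 read 5.0, 5.27 and 5.42 with DMSO and 6.57, 6.51 and 6.45 with AM80, a rise of 1.28 (SE 0.12, adjusted p = 0.00191). Neither gene showed any overlap between the groups. Higd1a, a mitochondrial protein gene induced by hypoxia, rose by 1.19 (SE 0.11), Angptl4, an inhibitor of lipoprotein lipase, by 1.38 (SE 0.18), and Ndrg1, a stress-response gene, by 1.54 (SE 0.31), with adjusted p of 0.00191, 0.00256 and 0.0107. Ndrg1 was 7.77 on DMSO replicate 3 against 6.29 and 6.78 on the others, and without that array its rise was 1.95.

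Over the HIF target list of 29 genes, 16 rose and 3 fell, with a median change of 0.54 against 0.04 over all genes. Leaving out single arrays moved the rises to between 11, without DMSO replicate 1, and 17. The 3 that fell were Bnip3l, a mitophagy receptor (−0.67), Lox, the collagen cross-linking lysyl oxidase (−1.60), and Rora, a nuclear receptor of the clock (−1.08). Lox read 7.72, 7.51 and 7.43 with DMSO and 5.30, 5.74 and 6.83 with AM80, and without DMSO replicate 1 its adjusted p was 0.0519. Rora lost its call without DMSO replicate 1, DMSO replicate 2 or AM80 replicate 1, with a highest adjusted p of 0.0671.

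Other HIF targets did not pass the test against DMSO. Kdm3a, a histone H3K9 demethylase that HIF induces, read 6.63, 6.83 and 6.03 with DMSO and 6.47, 6.18 and 6.84 with AM80, while the AM73 arrays read 8.19, 8.07 and 8.20. The AM80 and DMSO values overlapped, and all AM73 values lay above both. Its difference from DMSO was 0.00 (95% interval −0.48 to 0.48), and its difference from AM73 was −1.66 (adjusted p = 0.00113). Vegfa, the angiogenic growth factor, differed from DMSO by 0.00 (−0.21 to 0.22) and from AM73 by −0.56 (adjusted p = 0.00332). Bnip3, a mitophagy receptor, Ero1a, a disulfide-forming oxidase, and Plod2, a lysyl hydroxylase, did not pass the test against DMSO (−0.12, −0.24 and −0.54) and were lower than with AM73 by −1.08, −0.90 and −1.64 (adjusted p = 0.0019, 0.00101 and 0.000994). Without DMSO replicate 3, Plod2 was a called fall (−0.73, adjusted p = 0.037), and the list then had 17 rises and 4 falls. These genes, like Bnip3l, were chosen after their values were seen. Set directly against AM73, 2 of the 29 HIF targets were higher with AM80 and 9 were lower, when 9.92% and 9.22% of all genes were. Egln3, P4ha1, P4ha2, Slc16a3 and Slc2a1 did not pass the test between the compounds, with differences of −0.17, −0.22, 0.09, −0.01 and 0.15.

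**Figure D1:**
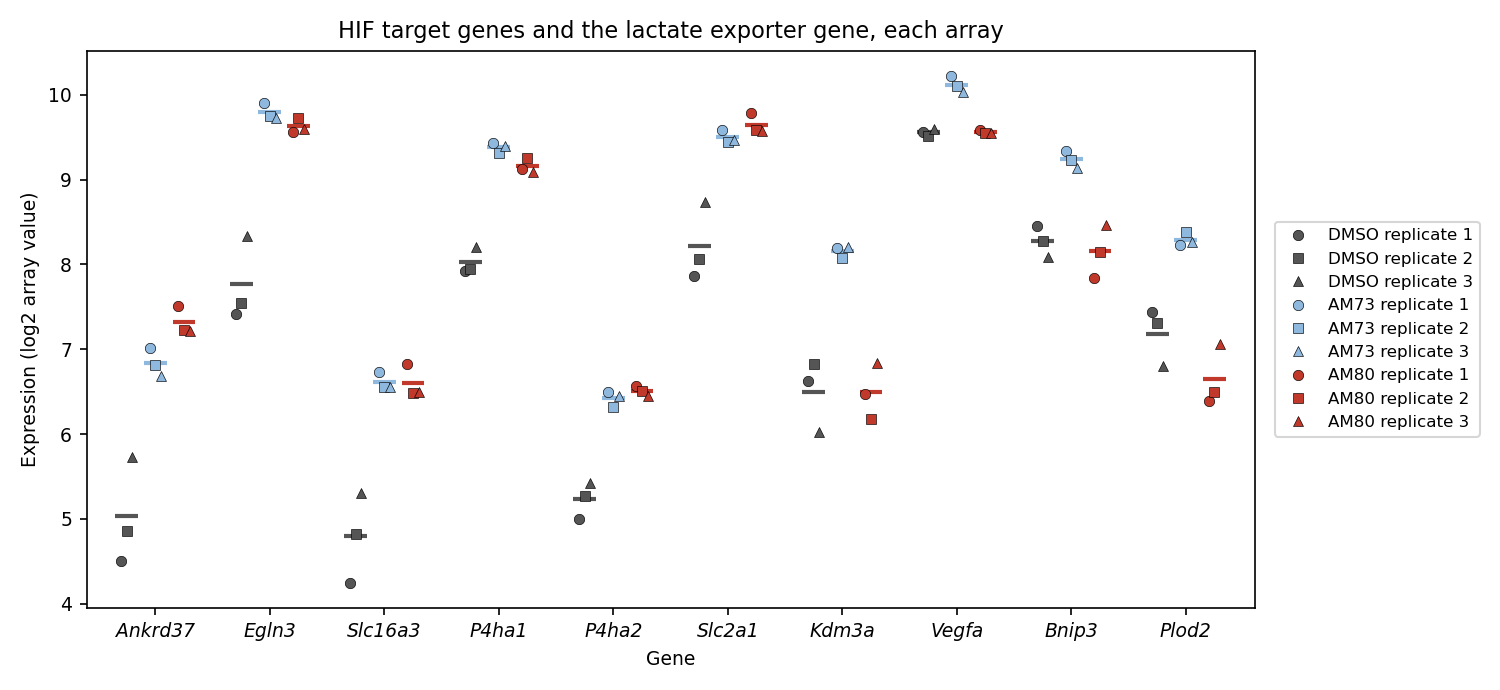
Log2 array values (vertical axis) of 10 genes on the 9 arrays. Grey is DMSO, blue is AM73 and red is AM80, the marker shape gives the replicate and the bar is the group mean. From Ankrd37 to Slc2a1 every AM80 point lies above every DMSO point, while Kdm3a, Vegfa and Bnip3 overlap DMSO and lie below AM73.

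The parts of the oxygen-sensing machinery moved in different directions. Hif1a, the HIF-1α subunit, read 6.67, 6.55 and 5.91 with DMSO and 4.41, 4.51 and 5.04 with AM80. The groups did not overlap and the fall was −1.72 (SE 0.22, adjusted p = 0.00246). Its partner Arnt, named after its values were seen like Hif3a, fell by 0.68 (adjusted p = 0.00896). The sensors rose: Egln1 (PHD2) by 1.12 (SE 0.16, adjusted p = 0.00299) and Vhl, the ubiquitin ligase component that binds hydroxylated HIF, by 0.62 (SE 0.11, adjusted p = 0.00655). Epas1 (HIF-2α) and Hif3a did not pass the test, at −0.29 and −0.01. In this list of 10 genes 4 rose and 2 fell.

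Genes of glucose use rose at several steps. Of 24 genes of glycolysis and lactate export, 13 rose and 1 fell, with a median of 0.49. Pfkl, the liver-type phosphofructokinase, read 8.22, 8.27 and 8.69 with DMSO and 9.90, 9.62 and 9.41 with AM80, and rose by 1.25 (SE 0.16, adjusted p = 0.00256). Pgam1, a phosphoglycerate mutase, read 6.73, 6.92 and 7.24 with DMSO and 8.49, 8.11 and 7.97 with AM80, and rose by 1.23 (SE 0.17, adjusted p = 0.00274). In both genes DMSO replicate 3 was the highest control and AM80 replicate 3 the lowest treated array, with a gap between them. Gapdh and Pgk1, enzymes of the same pathway chosen after their values were seen, differed by 0.07 each, with 95% intervals of −0.13 to 0.27 and −0.22 to 0.36. The cluster kept for Gapdh is placed on chromosome 4, and whether it reads the enzyme's own gene or a copy was not tested. The list had 9 rises without DMSO replicate 1, DMSO replicate 2, AM80 replicate 1 or AM80 replicate 2.

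Ucp1 rose, and most other thermogenic genes, like most genes measured, did not pass the test. Ucp1 read 3.54, 3.80 and 4.56 with DMSO and 5.99, 5.70 and 6.01 with AM80, with DMSO replicate 3 the highest of the controls. The groups were apart, and the rise was 1.93 (SE 0.28, 95% interval 1.31 to 2.55, adjusted p = 0.0032). With AM73 it read 6.61, 6.04 and 5.74, and the compounds differed by −0.23 (adjusted p = 0.643). Of 30 thermogenic genes, 14 of them brighter, 4 rose and 3 fell (13.3% and 10.0%), with a median of 0.12. Of all genes 6.90% rose and 7.04% fell, and of brighter genes 21.3% and 21.8%. Without DMSO replicate 1 or DMSO replicate 2 the thermogenic rises numbered 2 and the falls 1. Kcnk3, a potassium channel of brown adipocytes, rose by 0.94 (SE 0.18, adjusted p = 0.00849). Elovl6, a fatty acid elongase, read 8.15, 7.75 and 7.36 with DMSO and 6.61, 6.17 and 6.48 with AM80, a fall of −1.33 (SE 0.19, adjusted p = 0.00324). Cidea, a lipid droplet protein, differed by 0.82 (adjusted p = 0.0774), Dio2, the deiodinase that activates thyroid hormone, by 0.18, Prdm16, a brown fat determination factor, by −0.10, and Fgf21, a secreted metabolic hormone, by 0.18, and none of them passed the test. Cpt1b, the muscle-type carnitine palmitoyltransferase, rose by 0.56 (adjusted p = 0.0414), a call lost in 6 of the 9 fits without an array, where its adjusted p reached 0.139.

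Ppargc1a, the gene the compounds were meant to act on, read 7.31, 7.19 and 6.67 with DMSO, 6.82, 6.80 and 6.82 with AM73, and 5.14, 5.23 and 5.83 with AM80. Each AM80 array lay below each array of the other groups. The fall against DMSO was −1.66 (SE 0.21, 95% interval −2.12 to −1.19, adjusted p = 0.00237), and the difference from AM73 was −1.41 (adjusted p = 0.00166). Its relative Ppargc1b did not pass the test at −0.04 (95% interval −0.59 to 0.51). Esrra, which encodes the PGC-1 partner ERRα, went the other way, with 5.17, 5.07 and 5.52 on the DMSO arrays and 6.40, 6.21 and 6.09 on the AM80 arrays, a rise of 0.98 (SE 0.14, adjusted p = 0.00324).

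Across the 20 genes of the PGC-1 and ERR list, 2 rose and 8 fell. Prkaa1, a catalytic subunit of AMP-activated kinase, read 9.19, 8.84 and 8.14 with DMSO and 6.32, 6.58 and 7.20 with AM80, a fall of −2.02 (SE 0.28, adjusted p = 0.00287). The other catalytic subunit, Prkaa2, fell by 1.83 (SE 0.27, adjusted p = 0.00357). The corepressor genes Ncor1 and Nrip1 fell as well, by −1.56 (SE 0.23) and −1.62 (SE 0.24), with adjusted p of 0.00325 and 0.00351. Gabpa, a subunit of the nuclear respiratory factor NRF-2, fell by 1.19 (adjusted p = 0.00768). Sirt1, a nuclear deacetylase of PGC-1α, fell by 0.78, and without DMSO replicate 1 its adjusted p was 0.0647. Prkaa2, Gabpa, Sirt1 and Sirt3 were chosen after their values were seen. Sirt3, a mitochondrial deacetylase, rose by 0.79 (adjusted p = 0.00573). Tfam, the mitochondrial transcription factor, was 0.48 lower (adjusted p = 0.0179), a call lost without DMSO replicate 1, DMSO replicate 2, AM80 replicate 1 or AM80 replicate 2, with a highest adjusted p of 0.0737.

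The fat cell genes were mixed. Pparg, the nuclear receptor that drives fat cell differentiation, read 10.30, 10.04 and 9.80 with DMSO and 8.92, 9.17 and 9.32 with AM80, a fall of −0.91 (SE 0.15, adjusted p = 0.00497). Cd36, its target and a fatty acid transporter, read 11.25, 10.98 and 10.66 with DMSO and 9.22, 9.52 and 9.85 with AM80, and fell by 1.43 (SE 0.19, adjusted p = 0.00256). In both, the lowest control was replicate 3 and the highest treated array was replicate 3, without overlap. Ffar4, a receptor for long-chain fatty acids, read 6.46, 6.78 and 7.43 with DMSO and 9.26, 9.0 and 8.88 with AM80. That rise of 2.16 (SE 0.21, adjusted p = 0.00191) was among the 2 largest of the named rises. Hilpda, a lipid droplet inhibitor of fat breakdown, rose by 0.96 (SE 0.16, adjusted p = 0.00625) and Ppard, the PPARδ receptor, chosen after its values were seen, by 0.90 (adjusted p = 0.00836). Of the 35 genes of this list 9 rose and 3 fell, with a median of 0.32. The rises numbered 3 without DMSO replicate 1 or DMSO replicate 2 and 4 without AM80 replicate 1 or AM80 replicate 2.

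**Figure D2:**
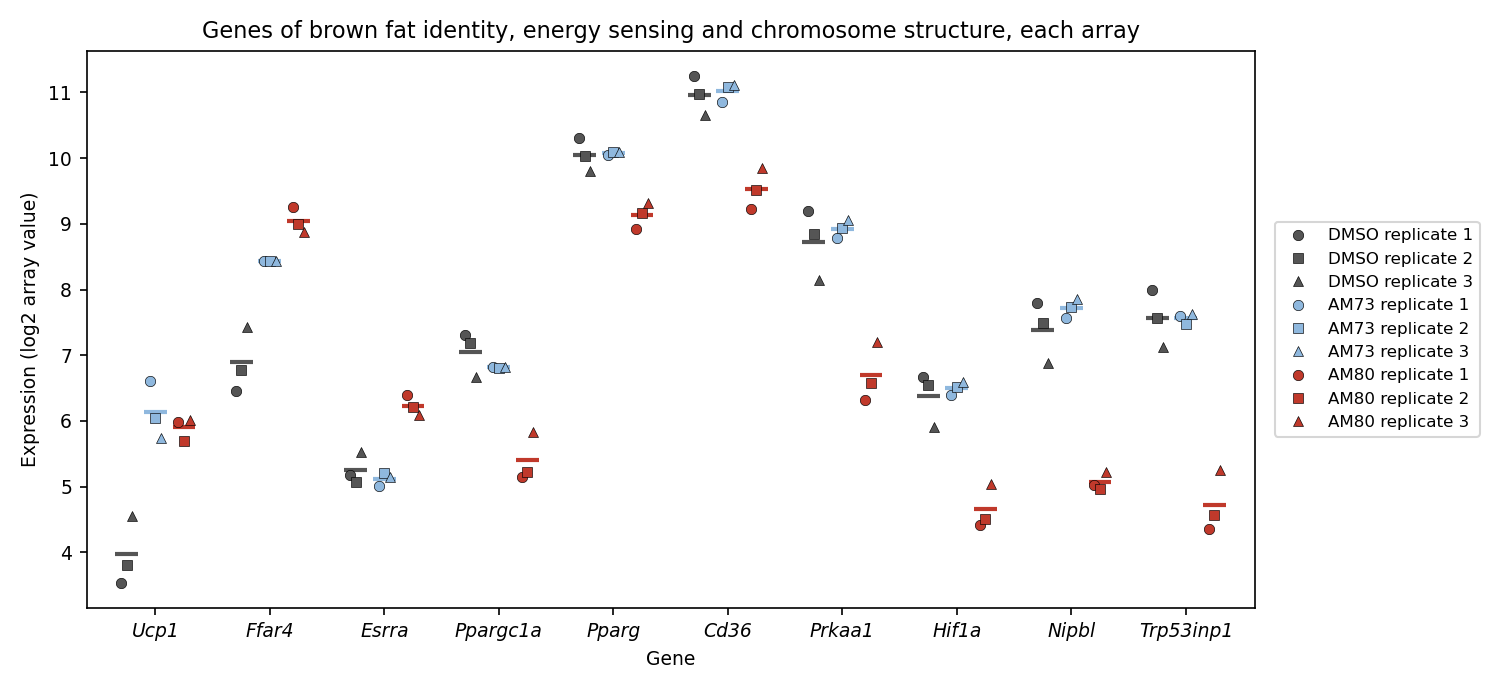
Log2 array values (vertical axis) of 10 genes on the 9 arrays, with colours, marker shapes and bars for groups, replicates and group means. Ucp1, Ffar4 and Esrra are higher and the other genes lower on every AM80 array than on any DMSO array.

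Among nuclear genes for mitochondrial proteins more members were called higher than lower, by smaller amounts. Of 37 complex I genes 19 rose and 1 fell (median 0.43), of 47 genes of complexes II to V 14 rose and 2 fell (median 0.29), and of 76 mitochondrial ribosome genes 34 rose and 6 fell (median 0.42). The rises were 51.4%, 29.8% and 44.7% of lists with median spans of 7690, 6751 and 7610 bp. Of brighter genes of 5 to 20 kb 29.8% rose (median 0.30), and of all genes of that span 10.4%. The list shares count all members, of which 36, 38 and 67 were brighter, so they are not directly comparable with either. The list counts rested on single arrays: without DMSO replicate 1 the rises were 1, 1 and 9, without DMSO replicate 2 they were 2, 1 and 13, without AM80 replicate 1 they were 5, 3 and 14, and without AM80 replicate 2 they were 5, 3 and 17. Members that kept their call in all 9 such fits included Mrps26 and Mrps16, of the small mitochondrial ribosomal subunit, which rose by 0.92 (SE 0.17, adjusted p = 0.00732) and 1.01 (SE 0.18, adjusted p = 0.00703). Mrpl20, of the large subunit, rose by 0.89 (adjusted p = 0.00669), Ndufb8, of complex I, by 0.85 (adjusted p = 0.0113) and Atp5e, of ATP synthase, by 0.99 (adjusted p = 0.00906). Of 20 genes of the mitochondrial genome 3 rose and 3 fell, and the falls were tRNA genes: mt-Tl1 went from 12.48, 12.42 and 12.16 to 10.23, 10.91 and 10.86 (−1.69, adjusted p = 0.00191), mt-Tk fell by 1.63 and mt-Tm by 0.86. mt-Ta, the alanine tRNA, rose by 0.98 (adjusted p = 0.00717).

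Short genes for abundant or structured RNAs were a further group of rises. All 58 called genes among 108 small nucleolar RNAs, guides of ribosomal RNA modification, were higher with AM80 (0 were lower), and the median change was 0.70. Their median stood at 1.06, 0.63 and 0.47 on the AM80 arrays and at 0.21 on DMSO replicate 3. Snord15a, chosen after its values were seen, read 6.60, 6.61 and 6.95 with DMSO and 8.44, 8.11 and 7.84 with AM80, a rise of 1.41 (SE 0.16, adjusted p = 0.00215). Rnu3a, a U3 small nucleolar RNA, read 6.34, 6.39 and 6.51 with DMSO and 8.23, 7.84 and 7.52 with AM80, a rise of 1.45 (SE 0.19, adjusted p = 0.0025). Rnu1b1, a U1 spliceosomal RNA whose probes the annotation marks as cross-hybridising, rose by 1.37 (adjusted p = 0.00729). Without DMSO replicate 1 the small nucleolar RNA rises numbered 22, without DMSO replicate 2 26 and without AM80 replicate 1 35.

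Of 44 replication-dependent histone genes 21 rose and 0 fell, with a median of 0.43. H4c17 read 6.99, 7.01 and 7.40 with DMSO and 8.34, 8.31 and 8.04 with AM80, a rise of 1.10 (SE 0.14, adjusted p = 0.00243), and H2ac11 and H2bc18 rose by 1.27 (SE 0.23) and 1.02 (SE 0.15). Histone genes have near-identical copies, so the level of a single copy is uncertain. Of 82 cytosolic ribosomal protein genes 24 rose and 2 fell (median 0.27), among them Rpsa (0.62, adjusted p = 0.0101), while Rpl21 fell by 0.59 (adjusted p = 0.00718). Both have cross-hybridising probes. Their clusters are placed on chromosomes 3 and 15, and whether these read the genes themselves or copies was not tested. Of 38 proteasome genes 11 rose and 1 fell (median 0.24). Psmb10, an immunoproteasome subunit, rose by 1.03 (SE 0.20, adjusted p = 0.00926) and Psmc6, an ATPase of the regulatory particle, fell (adjusted p = 0.00414). The rises were 47.7% of the histone list, 29.3% of the ribosomal protein list and 28.9% of the proteasome list, with median spans of 502, 3040 and 11930 bp. Of brighter genes 37.2% rose under 5 kb and 29.8% at 5 to 20 kb, and of all genes 5.76% and 10.4%. The list shares count dim members too: 23 of 44, 54 of 82 and 35 of 38 members were brighter. They are therefore not directly comparable with either share. Without DMSO replicate 1 the rises of the histone, ribosomal protein and proteasome lists numbered 5, 3 and 2, and without DMSO replicate 2 they numbered 7, 5 and 4.

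Genes of chromosome structure made a one-sided group of falls. Cohesin and condensin are ring-shaped complexes that hold and fold chromosomes. Of 24 such genes 20 fell and 0 rose, with a median of −1.68, and between 18 and 20 fell in each fit without an array, with up to 2 rises. The falls were 83.3% of a list with a median span of 47797 bp and 23 brighter members. Among brighter genes of 20 to 50 kb 25.6% fell, with a median of −0.03. Nipbl, the cohesin loader, read 7.79, 7.49 and 6.88 with DMSO and 5.02, 4.97 and 5.23 with AM80. The groups did not overlap, and the fall was −2.31 (SE 0.21, 95% interval −2.77 to −1.85, adjusted p = 0.00191). Pds5a, a cohesin regulator, read 8.49, 8.15 and 7.45 with DMSO and 5.25, 5.47 and 5.92 with AM80, a fall of −2.48 (SE 0.26, adjusted p = 0.00191). Smc2, a condensin subunit, fell by 2.01 (SE 0.21) and Wapl, the cohesin release factor, by 1.65 (SE 0.18), each with an adjusted p of 0.00191. Chosen after their values were seen, the cohesin core gene Smc3 fell by 2.04 and its partner Stag2 by 2.04. Mau2, which works with Nipbl, did not pass the test, at 0.18 (95% interval −0.06 to 0.42). On the single arrays the list median was −1.82, −1.76 and −1.36 for AM80 and −0.50 for DMSO replicate 3, each against the other DMSO arrays.

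Ubiquitin ligases of large size fell in a like manner, 18 of 27 lower and 1 higher (median −1.20). The falls were 66.7% of a list with a median span of 100709 bp, all of it brighter genes. Among brighter genes of 100 to 200 kb 40.2% fell, with a median of −0.40. Wwp1, a HECT-type ligase, read 7.53, 7.13 and 6.85 with DMSO and 5.05, 5.09 and 5.65 with AM80, a fall of −1.91 (SE 0.20, adjusted p = 0.00191). Cul4b and Cul5, cullin scaffolds, fell by 1.77 (SE 0.16) and 1.57 (SE 0.18), and Ubr3, a ligase of the N-degron family, by 1.75 (SE 0.23). The member that rose was Wwp2, named after its values were seen, at 0.78 (adjusted p = 0.011). Between 16 and 21 of the list fell in the fits without an array. Among 35 chromatin remodellers and histone methyltransferases 21 fell and 0 rose (median −0.75). Atrx, a remodeller of heterochromatin, read 7.50, 6.85 and 6.46 with DMSO and 4.20, 4.69 and 5.10 with AM80, a fall of −2.27 (SE 0.28, adjusted p = 0.00223). Setd2, the H3K36 methyltransferase, fell by 1.49 (SE 0.25), Chd1, a remodeller, by 1.44 (SE 0.21) and Nsd1, another H3K36 methyltransferase, by 1.19 (SE 0.19). This list had 8 falls without DMSO replicate 1, 10 without DMSO replicate 2 and 11 without either AM80 replicate 1 or AM80 replicate 2.

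The 2 largest named falls lay outside these complexes. Trp53inp1, a p53-induced nuclear protein gene, read 7.99, 7.57 and 7.12 with DMSO and 4.35, 4.57 and 5.25 with AM80. The groups were far apart, and the fall was −2.84 (SE 0.25, 95% interval −3.40 to −2.27, adjusted p = 0.00191). Ranbp2, a nucleoporin, read 8.27, 7.96 and 7.42 with DMSO and 4.56, 5.26 and 5.77 with AM80, a fall of −2.69 (SE 0.29, adjusted p = 0.00191). Clock, a transcription factor of the circadian oscillator, read 9.12, 8.83 and 7.58 with DMSO and 5.39, 5.85 and 6.48 with AM80, and its fall was −2.60 (SE 0.38, adjusted p = 0.0033), or −3.07 without DMSO replicate 3. The long noncoding RNA Tug1 read 7.88, 7.38 and 6.76 with DMSO and 4.68, 4.65 and 5.49 with AM80, a fall of −2.40 (SE 0.29, adjusted p = 0.00217). The other leading falls were Dhrs9, a retinol dehydrogenase (−2.65), Cse1l, a nuclear export receptor (−2.56), Dennd10 (−2.56), Manea, an endomannosidase (−2.54), Pgap1, which remodels GPI anchors (−2.42), Rasa1, a Ras GTPase-activating protein (−2.40), Trpm7, a channel kinase (−2.38), Uprt (−2.37) and Usp9x, a deubiquitinase (−2.37), with adjusted p between 0.00191 and 0.00304.

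Among other p53 targets Ccng1, a cyclin G gene, fell by 2.26 (SE 0.25, adjusted p = 0.00197) and Rrm2b, a ribonucleotide reductase subunit, by 1.33 (SE 0.17, adjusted p = 0.00256), and of the 24 genes of that list 1 rose and 6 fell, a share near the 21.8% of brighter genes, with a median of 0.06. Of 30 nuclear pore genes 1 rose and 10 fell, among them Tpr of the nuclear basket (−1.86, SE 0.24, adjusted p = 0.00252). Of 31 giant cytoskeletal genes 2 rose and 13 fell (median −0.42), led by the kinesin gene Kif5b (−2.11), the myosin gene Myo9a (−2.04) and the anchoring protein gene Akap9 (−1.75). Those falls were 41.9% of a list with a median span of 152469 bp. Among brighter genes of 100 to 200 kb 40.2% fell, with a median of −0.40, and among all genes of that span 19.4% fell. The list share counts all 31 members, of which 21 were brighter, so it is not directly comparable with either. Of 30 SR and hnRNP splicing factors 1 rose and 10 fell (median −0.38), with Hnrnph1 down by −1.46 (adjusted p = 0.00459). Of 375 Zfp-named zinc finger genes 13 rose and 69 fell, among them Zfp638 (−2.18), and Zfp395, a gene also raised by hypoxia, rose by 1.39. Without DMSO replicate 1 the falls were 3 of the p53 targets, 5 of the nuclear pore genes, 9 of the cytoskeletal genes, 4 of the splicing factors and 35 of the zinc finger genes.

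Signalling and cell cycle genes showed falls and rises side by side, and without DMSO replicate 1 the falls of the insulin and replication lists numbered 5 each and the rises 1 and 3. Of 30 insulin signalling genes 5 rose and 10 fell, with Pik3r1, the regulatory subunit of PI3-kinase, down by −1.38 (SE 0.22, adjusted p = 0.00504). Of 32 genes of DNA replication and mitosis 7 rose and 9 fell (21.9% and 28.1%), near the 21.3% and 21.8% of all brighter genes. Mki67, a marker of cycling cells, read 9.26, 8.70 and 8.06 with DMSO and 6.05, 6.45 and 6.86 with AM80, a fall of −2.22 (SE 0.30, adjusted p = 0.00262). Top2a, a topoisomerase, fell by 1.90 (SE 0.21, adjusted p = 0.00197), while Plk1, a mitotic kinase, read 7.96, 7.99 and 8.11 with DMSO and 8.61, 8.70 and 8.69 with AM80, a rise of 0.65 (SE 0.10, adjusted p = 0.00343). Of 8 targets of the aryl hydrocarbon receptor 2 fell, named after their values were seen: Tiparp by 1.67 (adjusted p = 0.00702) and Cyp1b1 by 0.84 (adjusted p = 0.00633), and both were lower than with AM73, by −2.37 and −2.15.

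Secreted factors and early response genes added to the rises. Sema3g, a secreted semaphorin, read 4.47, 4.63 and 4.61 with DMSO and 6.77, 6.43 and 6.44 with AM80. With DMSO arrays this close together, its rise of 1.98 (SE 0.12, 95% interval 1.70 to 2.25) had an adjusted p of 0.000755. Apln, the peptide apelin, read 5.49, 5.80 and 6.27 with DMSO and 7.39, 7.57 and 7.37 with AM80, a rise of 1.59 (SE 0.18, adjusted p = 0.00215). Nampt, which makes a precursor of NAD, fell by 1.21 (SE 0.20, adjusted p = 0.0054). Fosl1, an AP-1 subunit, read 5.10, 5.09 and 5.81 with DMSO and 7.37, 7.19 and 7.19 with AM80, a rise of 1.92 (SE 0.18, adjusted p = 0.00191), and of 29 AP-1 and immediate early genes 9 rose and 0 fell. Without DMSO replicate 1 these rises numbered 3 and without DMSO replicate 2 they numbered 4. Of 30 adipokines and secreted factors 6 rose and 1 fell, with 3 rises without DMSO replicate 1. Ier3 rose by 1.41 (SE 0.26, adjusted p = 0.00768). The remaining leading rises were Smtnl2 (1.65), Depp1, a FOXO-regulated gene (1.51), and Ppp1r3c, a glycogen-targeting phosphatase subunit (1.45), with adjusted p of 0.00217, 0.00217 and 0.00256.

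Jumonji demethylases, which like the HIF hydroxylases need oxygen, were split, with 3 of 20 up and 4 down. Kdm4b, an H3K9 demethylase, read 4.49, 4.83 and 4.81 with DMSO and 6.77, 6.03 and 5.88 with AM80, a rise of 1.52 (SE 0.21, adjusted p = 0.00299), and Jmjd6 rose by 1.02 (SE 0.13, adjusted p = 0.00246). Kdm6a and Jmjd1c fell by 1.93 (SE 0.27) and 1.90 (SE 0.32), with adjusted p of 0.00313 and 0.00587. Of 20 genes of the retinoic acid receptors and their targets 5 rose and 1 fell, with 3 rises without DMSO replicate 1 and 2 without AM80 replicate 1. Rarres2, the chemokine chemerin, rose by 1.02 (SE 0.11, adjusted p = 0.00191), and the receptor gene Rara by 0.74 (SE 0.13, adjusted p = 0.00644).

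Stress lists held rises and falls side by side, as did brighter genes as a whole. Of all brighter genes 21.3% rose and 21.8% fell, and of all genes 6.90% and 7.04%. The shares were 13.0% and 26.1% for the unfolded protein response and 15.0% and 30.0% for heat shock genes. They were 16.0% and 16.0% for cholesterol genes, 29.2% and 16.7% for the citric acid cycle and 30.4% and 8.7% for fatty acid oxidation. Of 23 genes of the unfolded protein response 3 rose and 6 fell, with the chaperone genes Hsp90b1 and Canx down by −1.01 and −1.02. Of 20 heat shock genes 3 rose and 6 fell: Cryab, a small heat shock protein gene, rose by 0.85 (SE 0.10, adjusted p = 0.00217), and Hsp90aa1 fell by 1.00 (SE 0.15, adjusted p = 0.00375). The integrated stress response list of 24 genes had 0 rises and 4 falls, among them Slc7a11, the cystine transporter (−2.24, SE 0.27, adjusted p = 0.00217). Of 22 NRF2 and glutathione genes 6 rose and 2 fell, with Gss, the glutathione synthetase, up by 0.74 (adjusted p = 0.00587). Of 25 cholesterol genes 4 rose and 4 fell, among the latter Msmo1, a sterol oxidase (−1.48, adjusted p = 0.00325). Of 23 genes of fatty acid oxidation 7 rose and 2 fell, with the thiolases Acaa2 and Acaa1a up by 0.72 and 0.62 (adjusted p = 0.00739 and 0.00881), and without DMSO replicate 1 the list had 2 rises. Other lists with calls in both directions were lipogenesis (3 rises and 1 fall of 24), the citric acid cycle (7 and 4 of 24), collagen and matrix (4 and 3 of 29), the circadian clock (4 and 2 of 20) and autophagy and lysosome (3 and 6 of 30); without DMSO replicate 1 the rises were 1, 0, 0, 0 and 1 and the falls 1, 0, 0, 1 and 4. Of 20 NF-kB and cytokine genes 2 rose and 1 fell, and 0 did either without DMSO replicate 1, DMSO replicate 2, AM73 replicate 1, AM80 replicate 1 or AM80 replicate 2. Without DMSO replicate 1 the unfolded protein response had 0 rises and 3 falls, the heat shock genes 1 and 2, the NRF2 genes 1 and 1, and the cholesterol genes 0 and 3.

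**Figure D3:**
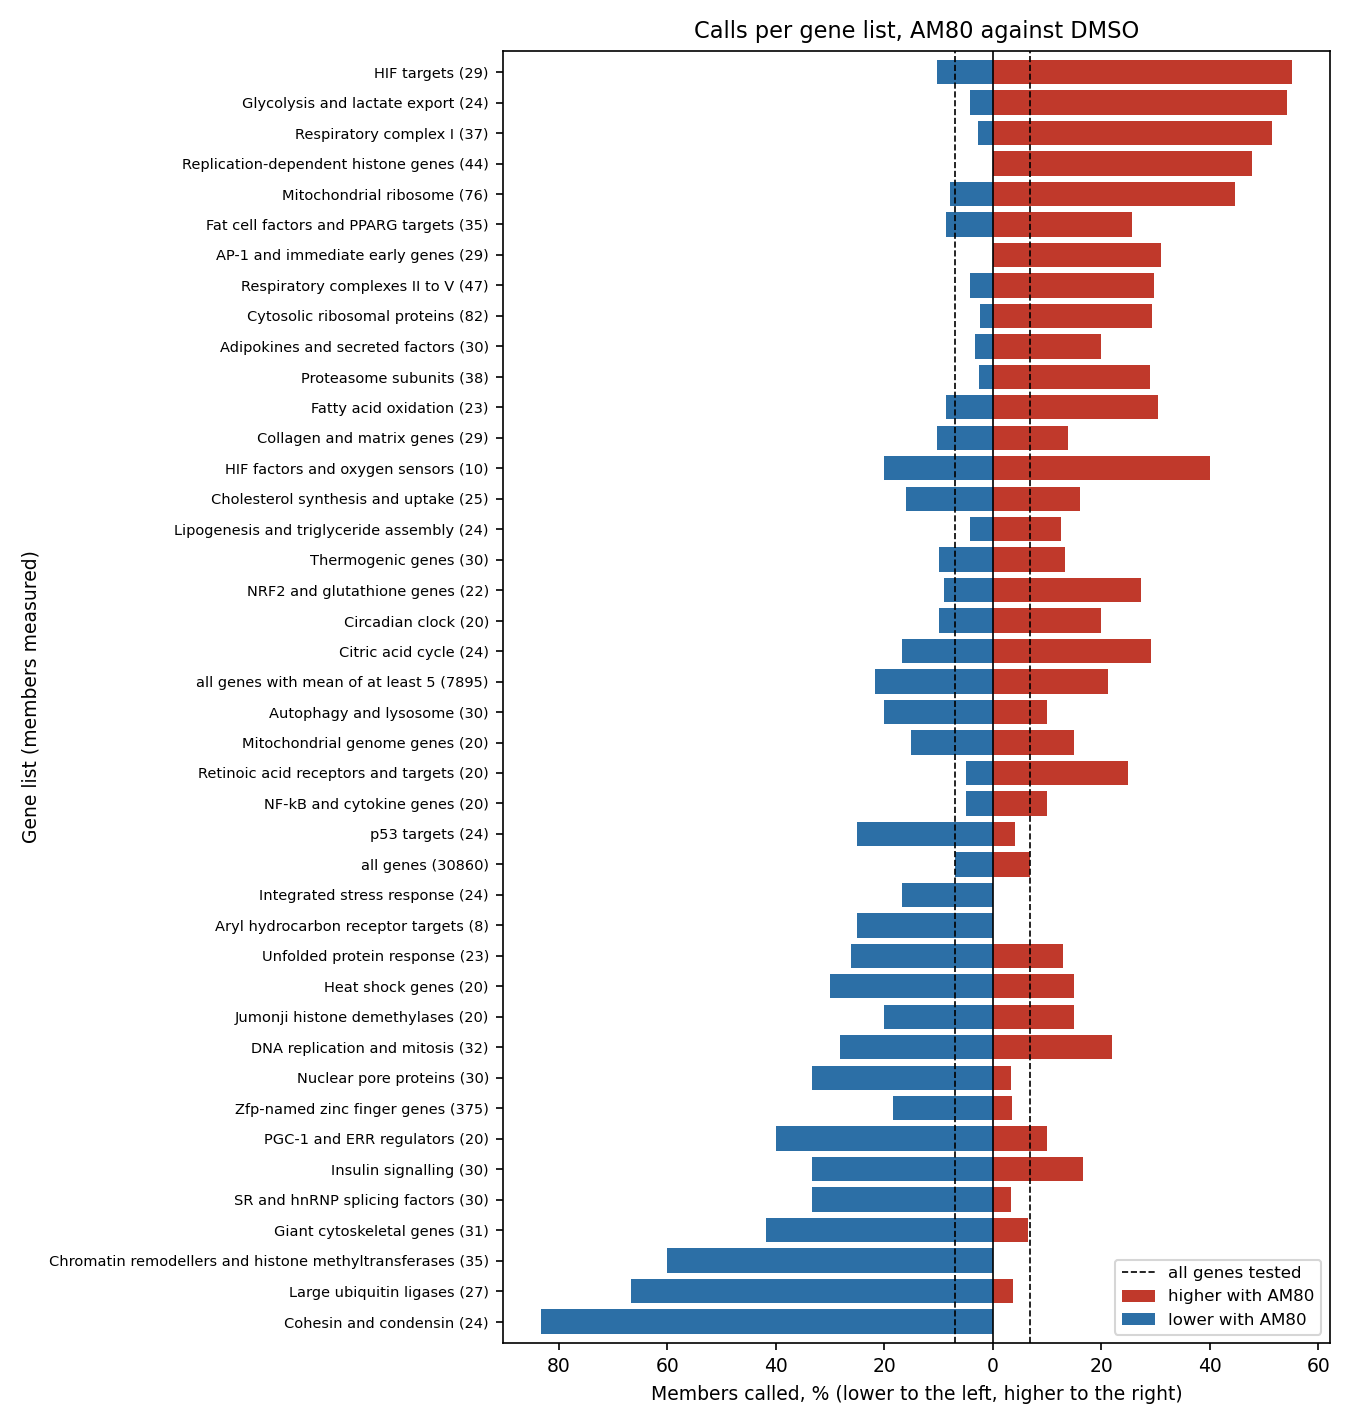
Percentage of measured members of each gene list called higher (red, right) or lower (blue, left) with AM80 than with DMSO, with the number of members in brackets. Dashed lines mark all genes tested, 6.90% higher and 7.04% lower, and 2 rows give all genes and the brighter genes; the cohesin and condensin list reaches 83.3% lower and the HIF targets 55.2% higher.

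The size of a gene on the chromosome went with the direction of its change. Among genes with a mean of at least 5, those that span under 5 kb had a median change of 0.41, with 488 of 1313 higher and 78 lower. The median was 0.30 at 5 to 20 kb (715 higher and 291 lower of 2403) and −0.03 at 20 to 50 kb. It was −0.40 at 50 to 100 kb, where 86 of 1140 were higher and 471 lower, −0.40 at 100 to 200 kb and −0.40 at 200 kb or more, where 11 of 229 were higher and 78 lower. The difference between the medians of genes of 100 kb or more and genes under 20 kb was −0.74. Per array it was −1.08, −0.70 and −0.38 for AM80, and 0.27, 0.07 and −0.35 for DMSO, so DMSO replicate 3 and AM80 replicate 3 were close to each other. The AM73 arrays stood at 0.20, 0.20 and 0.27.

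Of the genes of 200 kb or more, the largest named falls were Ascc3, a helicase subunit (−2.05), Angpt1, angiopoietin 1 (−1.98), Pola1, the catalytic subunit of DNA polymerase α (−1.97), Prkdc, the DNA-dependent protein kinase (−1.85), Scaper (−1.80) and Cers6, a ceramide synthase (−1.69). Pola1 read 7.48, 6.97 and 6.27 with DMSO and 4.88, 4.84 and 5.10 with AM80, and its adjusted p was 0.00256. Gene lists differ in span too: the median member of the histone list spans 502 bp, that of the HIF targets 23640 bp, that of cohesin and condensin 47797 bp and that of the large ubiquitin ligases 100709 bp. When the trend with span was removed from each array, 15 HIF targets rose, 20 cohesin and condensin genes fell, 14 complex I genes rose and the total was 3902 calls. That trend was fitted over all genes, whose median change at 100 to 200 kb was −0.05 against −0.40 for the brighter genes. Removing it moved Nipbl only from −2.31 to −2.27 and Pola1 from −1.97 to −1.93. These counts therefore cannot separate a list from the span of its genes.

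**Figure D4:**
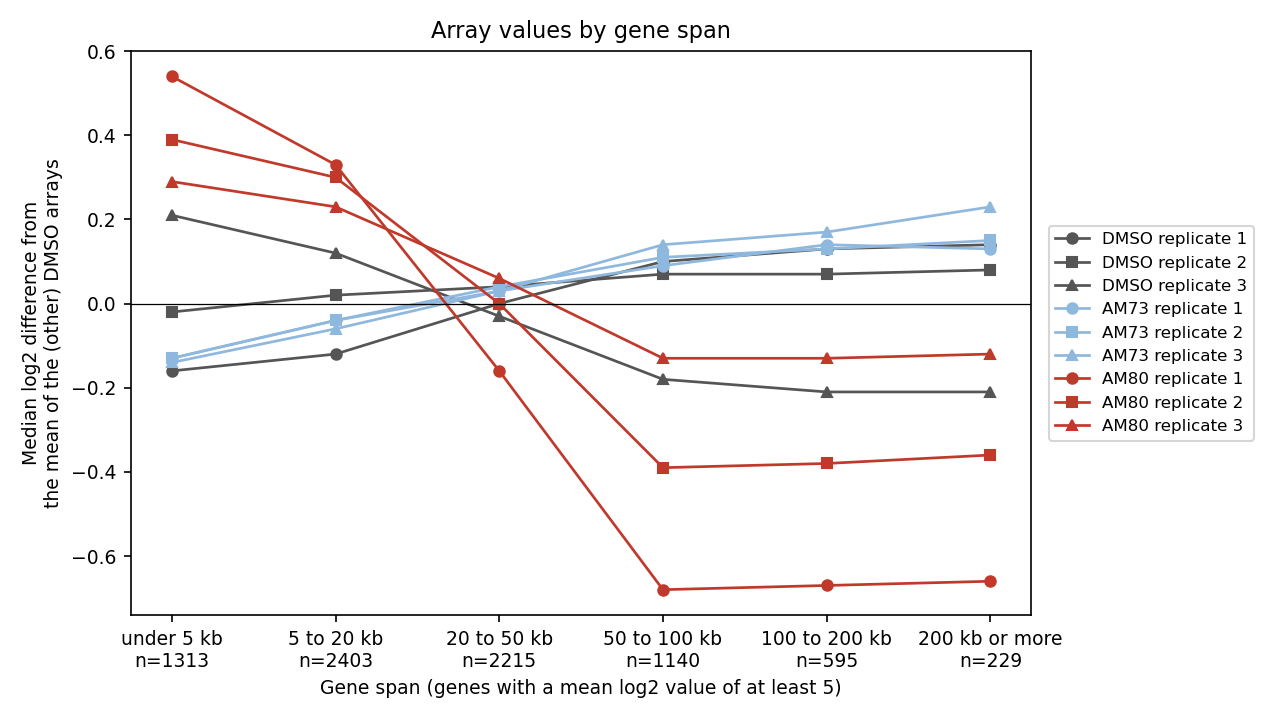
Median log2 difference from the mean of the DMSO arrays (for a DMSO array, of the other DMSO arrays) against bins of gene span, 1 line per array, for genes with a mean of at least 5. The AM80 lines start at 0.54, 0.39 and 0.29 under 5 kb and are all below 0 from 50 kb, where DMSO replicate 3 (−0.18 to −0.21) lies below AM80 replicate 3 (−0.12 to −0.13).

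The difference between the compounds was tested directly. Against AM73, 5907 genes differed (19.1%), 3061 higher and 2846 lower with AM80. Cohesin and condensin genes were lower than with AM73 in 20 of 24 cases, large ubiquitin ligases in 19 of 27 and chromatin remodellers in 25 of 35, and complex I genes were higher in 30 of 37. Nipbl differed by −2.65 (adjusted p = 0.000641), Hif1a by −1.85 (adjusted p = 0.000878) and Prkaa1 by −2.23 (adjusted p = 0.000994). For Ankrd37, Fosl1, Sema3g and Apln the differences were 0.48, 0.23, 0.32 and 0.43, and none passed the test.

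**Figure D5:**
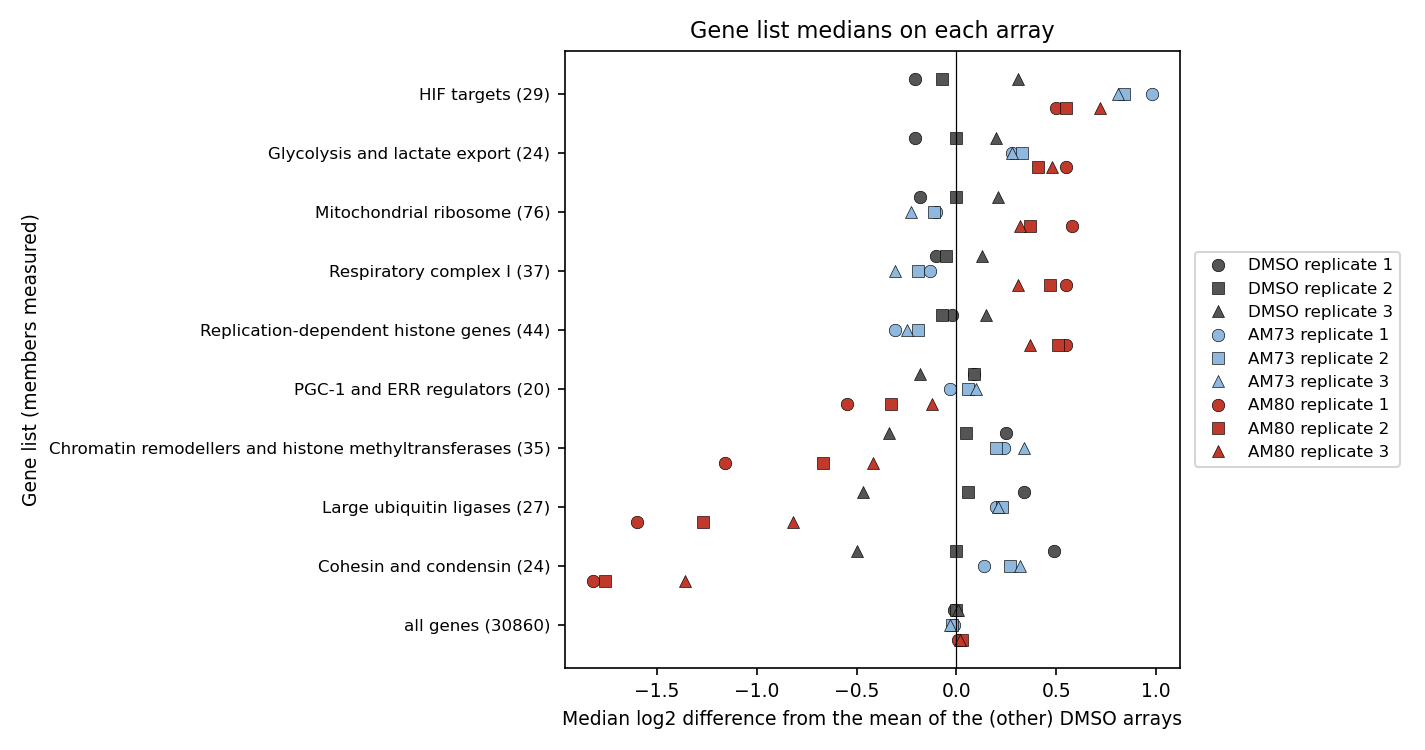
Median log2 difference from the mean of the DMSO arrays (for a DMSO array, of the other DMSO arrays) over the members of 9 gene lists and over all genes, 1 point per array. For the HIF targets the AM73 points (0.81 to 0.98) lie above the AM80 points (0.50 to 0.72), and for cohesin and condensin the AM80 points lie between −1.82 and −1.36 with DMSO replicate 3 at −0.50.

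All these changes are relative to the other genes of an array. When the arrays were scaled to the poly-A controls instead, the median of all genes moved to −0.80, every list median fell below 0 and 24 genes were called higher with AM80; Ankrd37 still stood at 1.45, Ucp1 at 1.09 and Egln3 at 1.02, while Vhl and Plk1 turned to −0.22 and −0.19. With the number in the column names as a term, 1440 genes were called, of which 377 were higher, with 12 HIF targets up and 18 cohesin and condensin genes down, but 1 complex I gene up.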

How the data were processed

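Total RNA of 9 samples was measured on Affymetrix whole-transcript arrays, 3 each for DMSO, AM73 and AM80. Per the file headers and the submitters' processing notes, the authors made log2 values per transcript cluster with Affymetrix Expression Console 1.41 (RMA background correction, quantile normalization, median polish; mm10 annotation). The authors also deposited q-values of a Student test, whose adjustment is not stated. Of 33793 features of category main, 32202 had a symbol, and symbols were updated through RefSeq where Entrez numbers matched (25099 features).

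AM80 was compared with DMSO and with AM73 in limma 3.58.1 (R 4.3.3), in 1 fit over all 9 arrays with 6 residual degrees of freedom, Benjamini-Hochberg adjusted over 30860 genes, threshold 0.05. All adjusted p-values in the text are from limma. Genes named were the 14 largest rises and falls with no overlap and a mean of at least 5, a fixed set of brown fat and HIF genes, up to 4 members per list with the smallest adjusted p, and the 6 largest falls of 200 kb or more and rises under 5 kb. The members and lists were chosen with earlier results of these data known. On simulated data, 63% of genes changed by 1 (log2) and 95% of those changed by 2 were recovered in the AM80 against DMSO fit. There were 100 changed genes of each size and 9 false calls. The simulation drew independent noise for each gene, unlike the shifts shared by many genes on these arrays, so its rates may not hold here. Alternatives covered scaling, filters, moderation, covariates and leaving out each array. Not every gene that the rule gives is reported here.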

Additional observations from a re-analysis of the deposited data

Results flagged for a closer look

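The poly-A control features, RNA spiked in during labelling that belongs to no gene tested, had a mean median of 5.50 (log2, SD 0.329, n = 3) on the AM80 arrays, above the highest DMSO array at 4.83. The values were 5.85, 5.44 and 5.20 with AM80.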

How the results depend on the processing

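Against DMSO, 4302 calls became 24222 with poly-A scaling (all genes shifted by −0.803), 2086 with only the 6 arrays compared, 1642 in an ordinary linear model, 3 by the methods' Student test, 5 by the authors' deposited q-value, 1440 with the array number as a term and 2403 with bright background probes as a covariate. Leaving out 1 array gave 1740 to 5226. With only arrays of number 5, a choice made after seeing the data that leaves 1 DMSO array assumed to vary like the others, 0 genes passed in limma (4256 had an unadjusted p under 0.05). Against AM73, 5907 calls became 28182, 1411, 3475 and 3513 with poly-A scaling, the Student test, the authors' deposited q-value and the array number. They became 0 with the background covariate (4572 at an unadjusted p under 0.05) and 0 with number 5 only (5446), and leaving out 1 array gave 4164 to 6453. Of 40 gene lists, 27 had a median above 0, and 0 did with poly-A scaling. That scaling turned Vhl (−0.22), Kdm3a (−0.84), Vegfa (−0.84), Gapdh (−0.77), Pgk1 (−0.77), Dio2 (−0.66), Fgf21 (−0.66), Cidea (−0.02), Cpt1b (−0.28), Sirt3 (−0.05), Rpsa (−0.22), Rara (−0.10), Mau2 (−0.66), Wwp2 (−0.06), Plk1 (−0.19), Gss (−0.10), Acaa2 (−0.12) and Acaa1a (−0.22) below 0. Apart from the construction of poly-A scaling and the smaller fits, the cause was not tested. Of 128 called genes named, 123 kept their call in every fit without an array and 113 with the array number. Many were named for large changes or small adjusted p in these same data, so their counts do not stand for all calls. Of all 4302 calls, 1620 were kept in every fit without an array and 1399 with the array number. The Student test and the authors' deposited q-value each kept 0 of the 128. Same-numbered replicates did not deviate together (correlations −0.298 to 0.068), and the replicate block gave 2999 calls against DMSO and 5063 against AM73.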
